A study of Mus musculus with 2 samples.

Results

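Genomic imprinting restricts the transcription of a gene to the copy inherited from the mother or from the father. The data on 10 imprinted genes with roles in fetal growth (H19, Igf2, Mest, Dlk1, Cdkn1c, Peg3, Grb10, Meg3, Igf2r and Plagl1) were taken from single-cell RNA-seq of endothelial and blood cells of the mouse embryo. They were chosen by name and are 10 of the 24543 genes of both count tables, 17784 of which had at least 1 UMI, the molecular tag that marks 1 captured RNA molecule. All 10 were detected. The cells, positive for CD31 and CD44, came from the caudal part of E10 embryos and were run in 2 replicates, each a single 10x lane that held hashtagged cells of both genotypes. The cKO embryos carried Vec-Cre and Nupr1 fl/fl, where the Cdh5 promoter drives Cre in endothelium. Blood cells that come from this endothelium would carry the deletion too, but Nupr1 counts are given here for EHT cells only. The control cells came from littermates with Nupr1 fl/fl or Nupr1 fl/+ and carry the hashtag label WT, which does not separate these 2 genotypes. Mice were kept on a C57BL/6 background, and the tables do not give the embryo of a cell.

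Igf2 encodes the main growth factor of the fetus, and Igf2r encodes the receptor that carries it to lysosomes for degradation. Grb10 encodes an adaptor that binds the insulin and IGF1 receptors and dampens their signal, Cdkn1c encodes the cell cycle inhibitor p57, and Plagl1 and Peg3 encode zinc-finger proteins. H19 and Meg3 are long non-coding RNAs that share imprinted domains with Igf2 and Dlk1. Igf2, Mest, Dlk1, Peg3 and Plagl1 are mainly transcribed from the paternal copy, whereas H19, Meg3, Cdkn1c, Igf2r and, in most tissues, Grb10 are transcribed from the maternal one. Several of these genes are known to mark quiescent stem cells of the adult bone marrow. The counts do not separate the parental copies.

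The members lie on 6 chromosomes of the GRCm38 annotation. H19 (chr7:142575529-142578143, minus strand) and Igf2 (chr7:142650766-142666816, minus) start 88.7 kb apart, and Cdkn1c (chr7:143458339-143461050, minus) lies further along the same chromosome, in a domain of its own. Dlk1 (chr12:109452823-109463336, plus) and Meg3 (chr12:109541001-109571726, plus) start 88.2 kb apart. The others are Mest (chr6:30723547-30748465, plus), Peg3 (chr7:6703892-6730431, minus), Plagl1 (chr10:13060504-13131694, plus), Grb10 (chr11:11930508-12038683, minus) and Igf2r (chr17:12682406-12769664, minus). Genes on the opposite strand that are also listed in the tables overlap Igf2 (Igf2os), Mest (Copg2) and Igf2r (Airn). Whether the counting used strand is not given in the sources used here, so the counts of these 3 pairs carry that uncertainty.

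The RefSeq promoter table (GRCm38.p6) held windows of 300 bases, from 250 before to 50 after a start site, for 8 of the 10 members and 15 start sites. The 4 windows printed here belong to the gene that fell most between arterial and EHT cells (Mest, start site 2), to a pair with nearly the same profile over all cells (Plagl1 and Peg3), and to the gene that rose (Dlk1). Capitals mark CG, the dinucleotide that carries DNA methylation. They are at chr6:30737800-30738099 (plus) for Mest, chr10:13090582-13090881 (plus) for Plagl1, chr7:6730370-6730669 (minus) for Peg3 and chr12:109452573-109452872 (plus) for Dlk1.
Mest: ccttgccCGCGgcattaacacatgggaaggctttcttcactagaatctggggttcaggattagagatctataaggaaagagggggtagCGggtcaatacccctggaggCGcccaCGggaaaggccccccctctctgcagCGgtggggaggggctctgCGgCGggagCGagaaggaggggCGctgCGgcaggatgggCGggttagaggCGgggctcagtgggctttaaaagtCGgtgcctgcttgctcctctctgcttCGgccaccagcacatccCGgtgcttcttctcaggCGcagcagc
Plagl1: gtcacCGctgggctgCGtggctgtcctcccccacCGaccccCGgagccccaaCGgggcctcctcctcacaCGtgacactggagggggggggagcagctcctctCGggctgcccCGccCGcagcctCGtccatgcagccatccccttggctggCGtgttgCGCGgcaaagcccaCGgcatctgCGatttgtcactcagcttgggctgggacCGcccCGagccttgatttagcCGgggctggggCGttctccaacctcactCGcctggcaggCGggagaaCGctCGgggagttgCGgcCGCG
Peg3: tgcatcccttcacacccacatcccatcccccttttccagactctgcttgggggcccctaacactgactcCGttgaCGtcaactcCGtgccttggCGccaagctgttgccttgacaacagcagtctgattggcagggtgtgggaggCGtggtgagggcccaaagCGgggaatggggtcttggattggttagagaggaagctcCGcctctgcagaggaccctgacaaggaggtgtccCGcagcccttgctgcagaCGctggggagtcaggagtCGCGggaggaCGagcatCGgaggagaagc
Dlk1: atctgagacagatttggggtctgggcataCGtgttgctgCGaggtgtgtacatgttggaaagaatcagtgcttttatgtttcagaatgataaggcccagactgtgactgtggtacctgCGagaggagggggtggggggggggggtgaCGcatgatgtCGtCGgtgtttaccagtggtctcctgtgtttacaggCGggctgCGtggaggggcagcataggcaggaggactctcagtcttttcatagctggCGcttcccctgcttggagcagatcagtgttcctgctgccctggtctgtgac
The windows hold 17 CG in Mest, 26 in Plagl1, 13 in Peg3 and 9 in Dlk1, where the median of all 32851 promoters is 7. As many or more were found in 31.4%, 16.9%, 37.9% and 45.8% of all promoters, respectively. The hexamer TGCCGC, which the imprint-protecting protein Zfp57 recognises when methylated, was found on either strand in 6 of the 15 member windows and in 11.6% of all promoters. Start sites 2 and 3 of Mest share nearly all bases of their windows.

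Introns and exons of 4 members hold microRNAs. The 5p arm of each is printed because its precursor is cut from the same transcript whose UMIs are reported for the host gene, and the mature forms themselves were not measured. Capitals mark the seed, bases 2 to 8.
miR-675-5p (exon of H19, chr7:142577112-142577133, minus): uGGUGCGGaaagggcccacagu
miR-483-5p (intron of Igf2, chr7:142654968-142654989, minus): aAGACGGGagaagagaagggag
miR-335-5p (intron of Mest, chr6:30741314-30741336, plus): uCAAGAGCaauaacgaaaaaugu
miR-770-5p (exon of Meg3, chr12:109563710-109563731, plus): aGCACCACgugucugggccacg
The 4 seeds differ from each other.

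Cells were assigned to 8 populations by marker genes that are not members. These were arterial cells (Gja5), vascular plexus cells (Kitl with Esm1), venous cells (Nr2f2 with Aplnr), EHT cells in endothelial-to-hematopoietic transition (Gfi1 with Neurl3), progenitors (Ptprc with Myb), myeloid cells (Mpo with Fcgr3), macrophages (C1qa) and megakaryocytes (Gp9). Of the 2139 cells, 1755 were assigned to 1 of these populations, 375 passed no gate and 9 were left out. The 9 passed gates of blood and endothelium together without the EHT gate, or the megakaryocyte gate with another blood gate. The gates held 409 arterial, 66 plexus, 76 venous, 162 EHT, 69 progenitor, 143 myeloid, 627 macrophage and 203 megakaryocyte cells. Other markers of the same type were highest in their own population for 6 of 6 macrophage, 5 of 5 myeloid, 5 of 5 megakaryocyte, 6 of 9 arterial and 4 of 6 EHT genes, but only for 2 of 4 plexus, 2 of 4 venous and 1 of 4 progenitor genes. The last 3 names are therefore only names of gates. In graph clusters of the same cells, 45 of the 66 plexus cells fell among arterial clusters and 25 of the 69 progenitors among EHT clusters. Of the 143 myeloid cells, 42 fell among myeloid clusters, 35 among progenitor clusters and 61 among clusters of none of the 8 populations. Of the 203 megakaryocytes, 142 fell among megakaryocyte clusters and 60 among clusters of none of the 8. Of the genes behind the sort, Pecam1 (CD31) had a UMI in 44.0% of macrophages and more of every other population, and Cd44 in 22.4% of venous cells and 63.6% to 95.8% of the others.

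For each population, genotype and replicate the UMIs of all cells were added up, and the 29 sums of at least 10 cells (335289 to 17031152 UMIs) were used. The pools held 334 and 748 control cells and 344 and 713 cKO cells in replicates 1 and 2, with no shared cell barcode. Venous cKO cells of replicate 2 numbered 9 and were not used, and megakaryocytes were used from replicate 2 only, since replicate 1 held 4. Levels are given as CPM, UMIs of a gene per 1000000 UMIs of the sum, in the order control replicate 1, control replicate 2, cKO replicate 1, cKO replicate 2. Since the sums of a population come from 2 lanes, the p-values measure the spread between these sums. The main fits held no term for the lane, so differences between the lanes are part of that spread. Nupr1, the deleted gene, had 126 and 78 UMIs in control and 5 and 5 in cKO EHT cells.

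Together the 10 genes took 0.977% ± 0.084 (SD, n = 4 sums) of all UMIs in arterial cells, 0.923% ± 0.116 (n = 4) in plexus, 0.456% ± 0.0697 (n = 3) in venous, 0.336% ± 0.0528 (n = 4) in EHT, 0.0958% ± 0.044 (n = 4) in progenitor, 0.0115% ± 0.00395 (n = 4) in myeloid, 0.00525% ± 0.00321 (n = 4) in macrophage and 0.0104% ± 0.00545 (n = 2) in megakaryocyte sums. Their summed level thus separated endothelial from mature blood cells, with EHT cells and progenitors between. The ranges of arterial and plexus sums overlapped. With graph clusters in place of gates the shares were 0.507% in plexus, 0.0432% in progenitor and 0.00617% in myeloid cells.

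**Figure D1:**
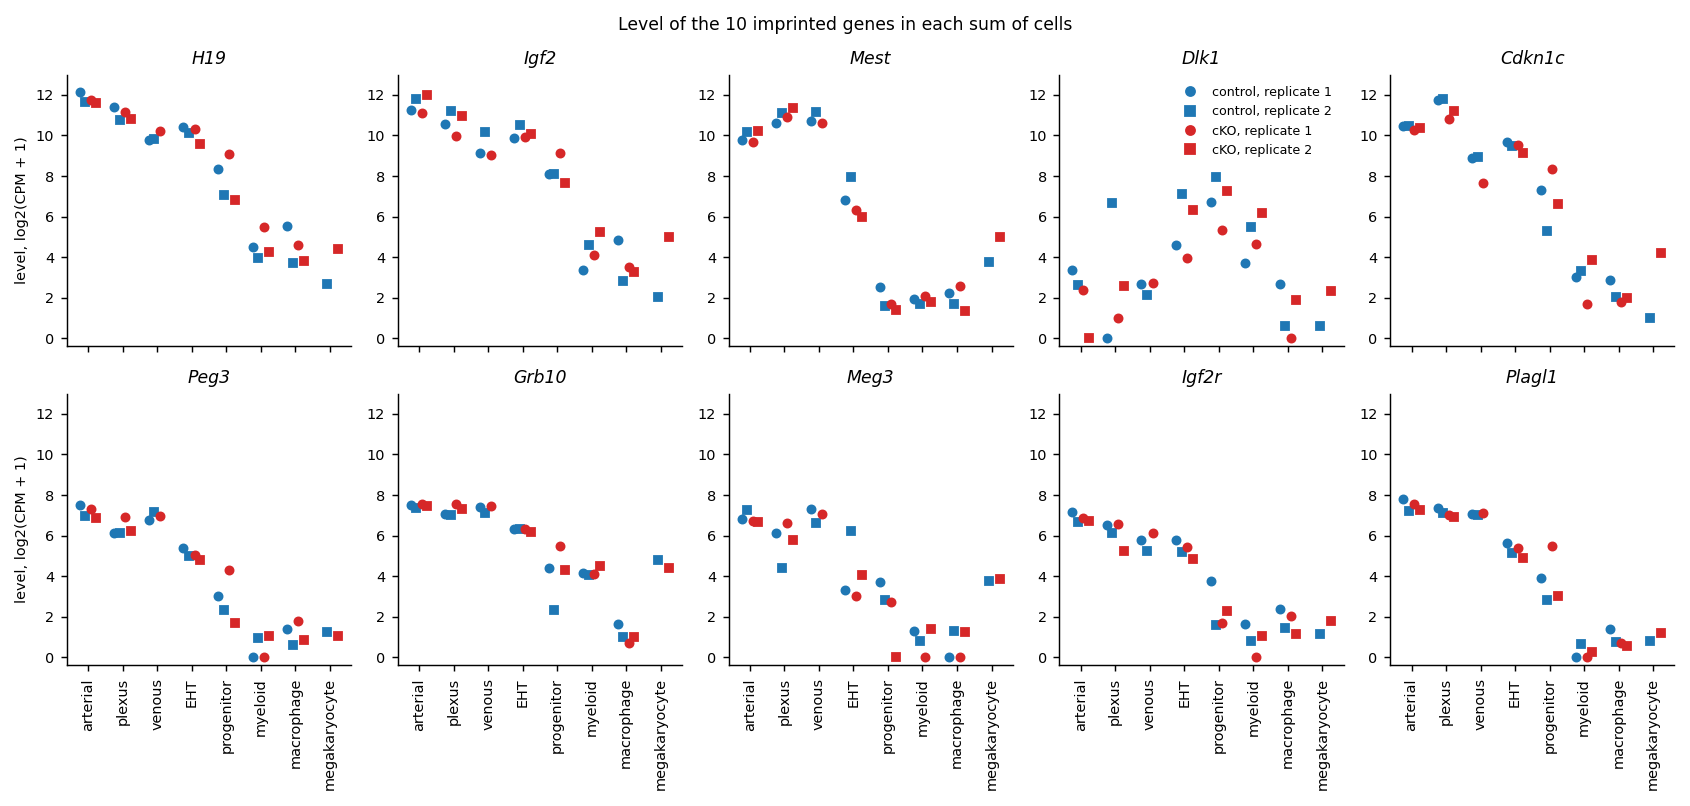
Level of each gene, as log2(CPM + 1), in each of the 29 sums of cells, by population (x axis), genotype (colour) and replicate (shape). Arterial H19 lies between 3150 and 4491 CPM and macrophage H19 between 11.9 and 46.1 CPM, while Dlk1 is highest in progenitors, between 39.9 and 249 CPM.

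The comparison of EHT with arterial cells concerns the transition in which blood cells leave the endothelium. Here and below, words such as fall, rise and loss stand for differences between populations. Whether cells of 1 population give rise to those of the next was not tested. In EHT cells, 8 of the 10 genes fell and 1 rose against arterial cells (edgeR quasi-likelihood test, adjusted p under 0.05), while 42.9% of all 11461 genes tested were called in that comparison, 22.6% lower and 20.3% higher. The median log2 fold change was -1.54 over the 10 genes and -0.000902 over all genes. The summed level of 6 endothelial markers went with it, from 3629 to 4585 CPM in arterial to 999.8 to 1566 CPM in EHT sums and 319 to 407 CPM in progenitors, and its part in the result was not tested. The growth factor Igf2, its decoy receptor Igf2r, the RNA H19, Mest, Peg3, Plagl1, Grb10 and Meg3 were the lower ones, and Dlk1 was the higher one. From EHT cells to progenitors 8 genes fell again and none rose, where 14.8% of all genes were called, 9.24% lower and 5.59% higher.

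Igf2 in arterial cells stood at 2468, 3546, 2223 and 4100 CPM, and in EHT cells at 941, 1485, 966 and 1062 CPM. All 4 EHT sums lay below all 4 arterial sums. The difference was -1.42 ± 0.49 (SE) on the log2 scale, a 2.68-fold lower level (edgeR, adjusted p = 0.023). In progenitors it fell by 1.76 ± 0.50 more (edgeR, adjusted p = 0.0187), to 273, 271, 555 and 203 CPM. All EHT cells still had an Igf2 UMI, but 59 of 69 progenitors did (85.5%, exact 95% interval 74.96% to 92.8%), at a median depth of 66344 UMIs. Macrophages, for comparison, had one in 30.5% of cells (26.9% to 34.2%) at a median depth of 58068 UMIs. After thinning to 6000 UMIs the shares were 60.9% of progenitors and 4.96% of macrophages. Within progenitors the lower and upper quartiles of the cells were 19.6 and 560 CPM, so the cells of this gate differed widely. The call against arterial cells was lost without arterial control replicate 2 (adjusted p = 0.0528), arterial cKO replicate 2 (0.0712), EHT control replicate 1 (0.0515) or EHT cKO replicate 1 (0.0501), with a log2 difference of -1.22 to -1.40. The call of progenitors against EHT cells was lost without EHT control replicate 2 (0.0631) or progenitor control replicate 1 (0.0591), control replicate 2 (0.0632) or cKO replicate 2 (0.0853). With control sums alone neither passed (-1.23, adjusted p = 0.169, and -2.11, adjusted p = 0.0561).

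H19 followed the same course. Its arterial levels were 4491, 3244, 3474 and 3150 CPM, and its EHT levels 1384, 1115, 1292 and 764 CPM, again without overlap. The log2 difference was -1.61 ± 0.41 (3.04-fold lower, edgeR adjusted p = 0.00298). Progenitors held 329, 133, 549 and 113 CPM, a difference from EHT cells of -2.01 ± 0.42 (adjusted p = 0.00177), and both replicate 1 sums were above both replicate 2 sums. A UMI of H19 was present in 408 of 409 arterial and in all 162 EHT cells. After each cell was thinned to 6000 UMIs, 99.3% of arterial, 96.3% of EHT, 56.5% of progenitor and 7.52% of macrophage cells kept one, in the same order as the levels.

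The receptor Igf2r and the adaptor Grb10 were lower in EHT cells as well. Igf2r went from 140, 102, 117 and 104 CPM in arterial to 53.4, 36.0, 42.5 and 28.2 CPM in EHT cells, a difference of -1.47 ± 0.27 (edgeR, adjusted p = 5.51e-05). In progenitors it was at 12.7, 2.00, 2.22 and 3.89 CPM, a difference from EHT cells of -2.83 ± 0.39 (adjusted p = 7.33e-06). These progenitor sums rest on only 16, 2, 2 and 7 Igf2r UMIs. Grb10 stood at 179, 164, 189 and 176 CPM in arterial cells and held 79.6, 80.1, 78.8 and 70.5 CPM in EHT cells. This is 2.21-fold lower (log2 -1.14 ± 0.22, adjusted p = 0.00011). In progenitors it scattered from 4.01 to 44.4 CPM, and the difference of -1.83 ± 0.26 was called (adjusted p = 1.09e-05).

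Plagl1 and Peg3 fell by nearly equal amounts in EHT cells. Plagl1, a transcription factor known to act on other imprinted genes, had 225, 149, 186 and 153 CPM in arterial and 49.0, 34.8, 40.3 and 28.7 CPM in EHT cells (log2 -2.16 ± 0.26, edgeR adjusted p = 9.92e-08). Peg3 had 178, 126, 156 and 116 CPM in arterial and 40.7, 30.7, 32.2 and 27.2 CPM in EHT cells (log2 -2.08 ± 0.26, adjusted p = 1.77e-07). For both genes the groups were well apart. Progenitors carried 14.3, 6.01, 43.2 and 7.22 CPM of Plagl1 (log2 -1.20 ± 0.32, adjusted p = 0.00828) and 7.14, 4.01, 18.8 and 2.22 CPM of Peg3 (log2 -2.15 ± 0.36, adjusted p = 8.51e-05). The cKO sum of replicate 1 was the highest progenitor sum for both, and its Plagl1 level overlapped that of EHT cells, although 1 cell gave 59.0% of its 39 UMIs. The Plagl1 call in progenitors was lost without control replicate 2 (adjusted p = 0.0523) or cKO replicate 2 (0.0852), and the Peg3 call with thinning (-1.24, adjusted p = 0.3175).

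Cdkn1c, the p57 gene, was the member for which the arterial and EHT populations differed least. Levels were 1396, 1419, 1251 and 1310 CPM in arterial and 827, 716, 725 and 557 CPM in EHT cells. The sums did not overlap, but the difference of -0.88 ± 0.49 did not pass the test (edgeR, adjusted p = 0.155). It passed with each cell thinned to 6000 UMIs (-0.85, adjusted p = 0.0177) and with graph clusters in place of gates (-1.40, adjusted p = 0.00457). Progenitors held 160, 38.1, 323 and 98.3 CPM (log2 -2.19 ± 0.52 against EHT cells, adjusted p = 0.00491). Among arterial cells, the 110 cells with UMIs of the cycling genes Mki67 and Top2a held 876 to 1127 CPM of Cdkn1c in the 4 sums, and the 213 cells with neither held 1393 to 1751 CPM, without overlap. In EHT cells, the 109 of 162 cells with both cycling genes held 583 to 840 CPM. The 21 EHT cells with neither held 498 to 1259 CPM in the 3 sums with at least 5 of them. Cells with both genes were deeper than cells with neither. Median depths were 32309 and 21270 UMIs in arterial cells and 64657 and 38445 UMIs in EHT cells. The part of depth in these differences was not tested.

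Mest, which encodes a protein of the hydrolase fold, showed the steepest loss. Arterial sums held 882, 1156, 830 and 1188 CPM, EHT sums 113, 249, 78.2 and 62.9 CPM, and progenitor sums 4.76, 2.00, 2.22 and 1.67 CPM. Each step was free of overlap, with a 7.77-fold fall into EHT cells (log2 -2.96 ± 0.34, edgeR adjusted p = 1.8e-07) and a 45.8-fold fall into progenitors (log2 -5.52 ± 0.53, adjusted p = 1.56e-07). The 69 progenitors carried 13 Mest UMIs in all, in 9 cells. A UMI was found in 13.04% of them (exact 95% interval 6.14% to 23.3%), close to the 12.1% of macrophages (9.67% to 14.9%), at median depths of 66344 and 58068 UMIs. The 2 intervals overlapped, and the part of free RNA in these shares was not tested. EHT cells were divided, with Mest in 93 of 162 cells, a median of 15.2 CPM and an upper quartile of 114 CPM. A single cell gave 61.6% of the Mest UMIs of the EHT cKO sum of replicate 2, and 16.7% to 28.8% in the other EHT sums.

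Dlk1 and Meg3, neighbours on chromosome 12, moved in opposite directions. Dlk1, which encodes a transmembrane relative of the Notch ligands, was almost silent in arterial cells, at 9.44, 5.18, 4.22 and 0 CPM, where a count of 0 allows up to 1.04 CPM. Only 8 of 409 arterial cells had a UMI (1.96%, exact 95% interval 0.848% to 3.82%), and 1 cell gave 78.6% to 96.3% of the UMIs of each of the other 3 sums. EHT cells held 23.2, 139, 14.4 and 78.5 CPM, with UMIs in 46 of 162 cells (28.4%, 21.6% to 36.0%). In the 4 EHT sums 1 cell gave 34.8% to 46.9% of the UMIs, and the top 3 cells gave 63.0% to 88.0%. Progenitors held 104, 249, 39.9 and 150 CPM, with UMIs in 38 of 69 cells (55.1%, 42.6% to 67.1%). Macrophages, for comparison, had it in 3.35% of cells (2.085% to 5.07%). All 4 EHT sums lay above the arterial sums, and the EHT and progenitor sums overlapped. The rise into EHT cells was 3.80 ± 1.04 on the log2 scale (edgeR, adjusted p = 0.00527), and the further rise of 1.16 ± 0.81 into progenitors did not pass (adjusted p = 0.399). With stricter gates the rise into EHT cells was 0.43 and was not called (adjusted p = 0.775), and with control sums alone it was 3.55 (adjusted p = 0.136). In EHT cells and in progenitors both replicate 2 sums lay above their replicate 1 counterparts, 5.62-fold to 6.06-fold in EHT and 2.41-fold to 3.75-fold in progenitors, where 7.85% and 12.7% of all genes with at least 100 UMIs differed over 1.5-fold between replicates in the same direction in both genotypes.

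Meg3 went the other way, from 110, 155, 103 and 100 CPM in arterial to 9.08, 74.0, 7.19 and 15.6 CPM in EHT cells (log2 -2.10 ± 0.54, edgeR adjusted p = 0.00311). The groups did not overlap, although a single cell of the EHT control sum of replicate 2 gave 50.8% of its 183 UMIs. In progenitors the RNA was down to 11.9, 6.01, 5.54 and 0 CPM, and the difference from EHT cells, -2.24 ± 0.80, did not pass (adjusted p = 0.0631), though it did with DESeq2 (adjusted p = 0.0481), clusters (0.00052), the stated cell limits (0.0219), stricter gates (0.0143) and without EHT control replicate 1 (0.0352) or EHT cKO replicate 1 (0.0266). With control sums alone the fall into EHT cells did not pass (-1.58, adjusted p = 0.216). Cell by cell, Dlk1 and Meg3 were hardly related in EHT cells, with a Spearman correlation of 0.225 over 95 cells of replicate 1 and 0.0425 over 67 cells of replicate 2, after thinning to equal depth.

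**Figure D2:**
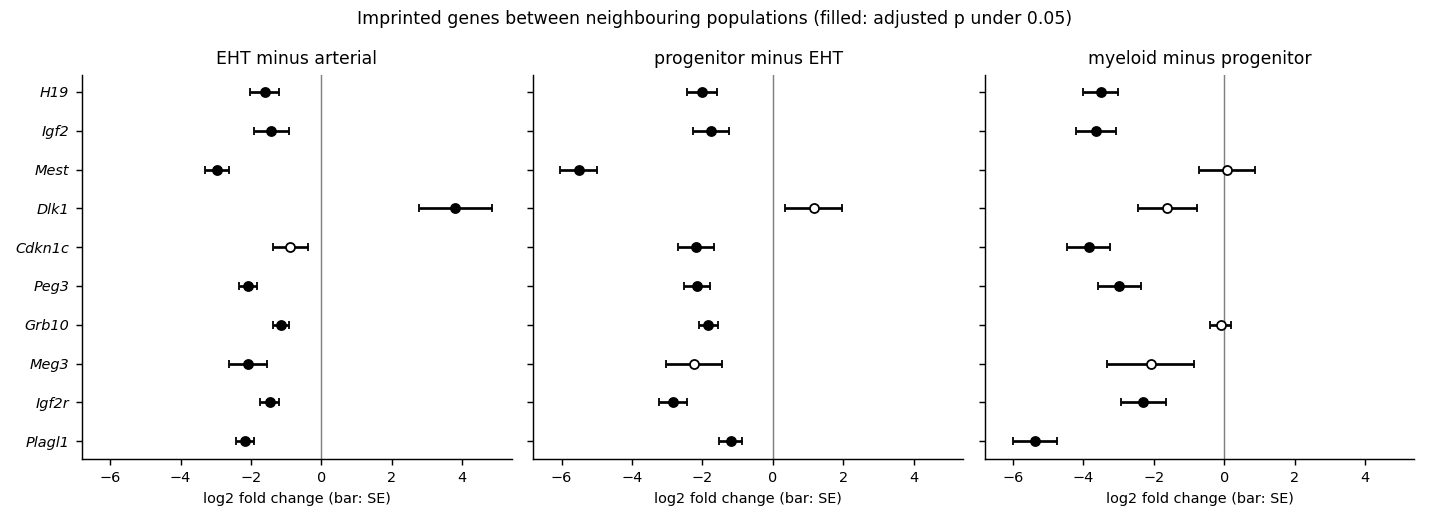
Log2 fold change (x axis, with SE) of the 10 genes between arterial cells, EHT cells, progenitors and myeloid cells. Filled points passed the test, with 8 genes lower and Dlk1 higher in EHT cells, 8 genes lower in progenitors and 6 lower in myeloid cells.

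EHT cells could be split by whether they also passed the arterial or the progenitor gate. Of the 162 cells, 43 passed the arterial but not the progenitor gate, and 77 passed neither. The other 42 passed the progenitor gate, whether or not they also passed the arterial one. Median depths were 53635 UMIs with the arterial gate, 77979 with the progenitor gate and 49803 with neither. Mest divided these groups most clearly. The 3 sums of at least 5 cells with Gja5 held 385, 601 and 238 CPM, the 4 sums with neither held 10.3, 124, 21.9 and 5.24 CPM, and the 4 sums with Ptprc and Myb held 8.18, 7.61, 29.5 and 96.7 CPM. The ranges of the last 2 groups overlapped, and both lay below the first. Plagl1 was at 59.5 to 94.7 CPM with Gja5, 18.8 to 34.95 CPM with neither and 18.3 to 27.8 CPM with Ptprc and Myb. H19 was graded, at 1822 to 2061, 697 to 1242 and 595 to 996 CPM in the same order. Cdkn1c changed less, at 800.3 to 1186, 469 to 778 and 503 to 621 CPM. These groups were formed from EHT cells by marker genes, and no test was made between them. Cells that hold an arterial and a blood program at once can also be 2 cells in 1 droplet, and only the hashtag singlets selected by the authors were available.

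**Figure D3:**
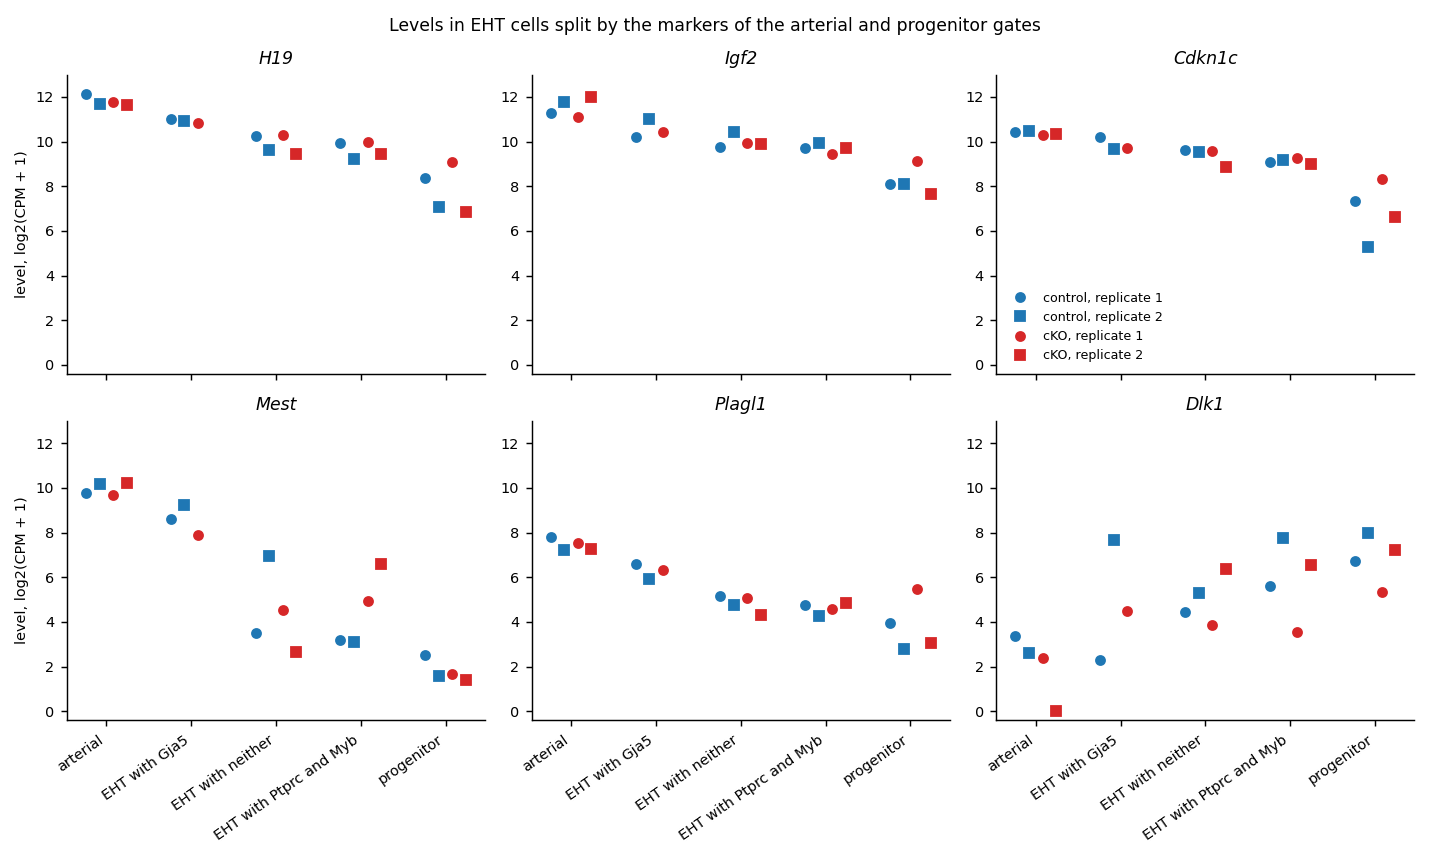
Levels, as log2(CPM + 1), of 6 of the genes in arterial cells, in EHT cells split by the arterial and progenitor markers, and in progenitors, in each sum of at least 5 cells. Mest falls from 238 to 601 CPM in EHT cells with Gja5 to 5.24 to 124 CPM in those with neither marker, and Dlk1 spreads widely within every group.

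From progenitors to myeloid cells, 6 of the 10 genes fell and none rose, where 14.5% of all genes were called, 8.64% lower and 5.85% higher. Plagl1 was almost lost, with 0, 0.555, 0 and 0.210 CPM and 4 UMIs in 143 cells (log2 -5.37 ± 0.61, edgeR adjusted p = 7.83e-07). Cdkn1c (-3.85 ± 0.62, adjusted p = 0.000218), Igf2 (-3.63 ± 0.57, adjusted p = 0.000167) and H19 (-3.52 ± 0.49, adjusted p = 3.21e-05) fell by similar amounts, to 2.20 to 13.6, 9.37 to 37.3 and 14.6 to 44.1 CPM. Peg3 (0, 0.924, 0 and 1.05 CPM, log2 -2.98 ± 0.60) and Igf2r (2.16, 0.740, 0 and 1.05 CPM, log2 -2.30 ± 0.64) were the others. The call of Igf2r was lost without progenitor control replicate 1 (adjusted p = 0.246) or myeloid control replicate 2 (0.0668), with thinning (0.3425), with stricter gates (0.0729) and with control sums alone (0.0707). With graph clusters the calls of Plagl1 (-1.67, adjusted p = 0.131) and Peg3 (-2.78, adjusted p = 0.0725) were lost, and with thinning that of Plagl1 (-4.76, adjusted p = 0.065). Grb10 was not among the 6. It held 16.6, 15.9, 16.5 and 21.4 CPM in myeloid cells, with a UMI in 46.2% of cells, and its difference from progenitors was -0.10 ± 0.29 (adjusted p = 0.867), but 1.12 with clusters (adjusted p = 0.035). Dlk1 held 12.3, 43.6, 24.2 and 71.7 CPM, lower than in progenitors in 4 of 4 pairs of sums but without a call (-1.61 ± 0.83, adjusted p = 0.214). Mest, at 2.88, 2.22, 3.31 and 2.52 CPM, and Meg3, at 1.44, 0.740, 0 and 1.68 CPM, did not pass either (0.0752 ± 0.805, adjusted p = 0.981, and -2.09 ± 1.24, adjusted p = 0.2865).

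Macrophages, in which 62.5% of all genes were called against arterial cells, 32.7% lower and 29.9% higher, had 9 of the 10 genes lower than arterial cells, the exception being Dlk1 (-1.15 ± 1.32, edgeR adjusted p = 0.466), which passed with stricter gates (-3.07, adjusted p = 0.0323). The log2 differences ran from -5.60 ± 0.35 for Igf2r to -8.40 ± 0.47 for Mest. H19 stood at 46.1, 11.9, 22.9 and 13.3 CPM, Igf2 at 27.9, 6.05, 10.3 and 8.63 CPM, and the other 8 genes at 6.44 CPM or less in every sum. Grb10 in particular was at 2.15, 1.01, 0.627 and 0.998 CPM. A UMI of H19 was still found in 46.7% of macrophages at their full depth but in 7.52% after thinning, and the part of free RNA in this share was not tested.

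In megakaryocytes 6 genes were lower and Mest was higher than in progenitors, where 40.4% of all genes were called, 22.5% lower and 17.9% higher. Mest had 12.7 CPM in the control and 31.4 CPM in the cKO sum (log2 3.202 ± 0.62, edgeR adjusted p = 0.000196), although 1 cell gave 53.2% of the cKO UMIs. With cells thinned to 6000 UMIs the Mest difference was 1.81 and did not pass (adjusted p = 0.394). Grb10 was at 26.8 and 20.4 CPM, with a UMI in 69.0% of cells (62.1% to 75.3%) against 5.90% of macrophages (4.19% to 8.04%), and Meg3 was at 12.5 and 13.8 CPM. Neither difference from progenitors passed the test (0.33 ± 0.31, adjusted p = 0.417, and 1.44 ± 0.89, adjusted p = 0.2075). With graph clusters both were higher (1.57, adjusted p = 6.55e-05, and 3.43, adjusted p = 0.000352), with stricter gates Meg3 was (2.78, adjusted p = 0.00773), and without progenitor cKO replicate 1 Grb10 was (0.83, adjusted p = 0.0207). H19, Igf2, Dlk1, Cdkn1c, Peg3 and Plagl1 were the lower genes, with log2 differences from -2.32 for Peg3 to -5.82 for Dlk1. The call of Dlk1 was lost without megakaryocyte control replicate 2 (adjusted p = 0.051) and with control sums alone (0.0514), and that of Peg3 with control sums (0.0585) and clusters (0.0869). Clusters also lost Cdkn1c (-1.16, adjusted p = 0.111), and thinning lost Plagl1 (-2.96, adjusted p = 0.0598). Igf2r, at 1.20 and 2.51 CPM, missed the threshold (-1.40 ± 0.57, adjusted p = 0.0501) and passed with DESeq2 (adjusted p = 0.0268), RLE normalization (0.0451), control sums alone (0.0244) and in 3 fits without 1 sum (0.0357 to 0.0386). Since only 2 sums of 1 lane stand for megakaryocytes, their spread rests on the other populations of the fit. Markers of erythroid cells summed to 651 and 919 CPM in these sums, against at most 145 CPM in every other population, and their part in the result was not tested.

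Plexus and venous cells were also compared with arterial cells. Plexus cells differed in 1 of the 10 genes, where 8.1% of all genes were called, 4.1% higher and 4% lower. Mest was higher, at 1557, 2190, 1927 and 2634 CPM (log2 1.07 ± 0.32, edgeR adjusted p = 0.0357), in 4 of 4 pairs and without overlap with arterial cells. The call of Mest was lost when any 1 of arterial control replicate 1, control replicate 2 or cKO replicate 1, or plexus control replicate 2, cKO replicate 1 or cKO replicate 2 was left out (adjusted p = 0.0539 to 0.119), and also without a low-count filter (0.079), with clusters (0.662), with thinning (0.1895) and with control sums alone (0.261). With the replicate as a block, Igf2r (-0.68 ± 0.19, adjusted p = 0.0131) and Peg3 (-0.71 ± 0.20, adjusted p = 0.0182) were lower as well. Cdkn1c had 3466, 3509, 1775 and 2384 CPM in plexus cells, above all 4 arterial sums, yet the difference did not pass (1.08 ± 0.49, adjusted p = 0.221). It passed with cells thinned to 6000 UMIs (1.08, adjusted p = 0.0209) but was lower than in arterial cells with graph clusters in place of the gates (-2.31, adjusted p = 0.0354), so its direction depends on how plexus cells are chosen. H19 (2669, 1762, 2309 and 1781 CPM, log2 -0.73 ± 0.41), Igf2 (1512, 2343, 989.8 and 1993 CPM, -0.82 ± 0.49), Plagl1 (164, 137, 127 and 118 CPM, -0.37 ± 0.25) and Grb10 (131, 129, 188 and 159 CPM, -0.17 ± 0.23) were not called. Nor were Meg3 (68.6, 20.2, 96.4 and 54.2 CPM, -0.92 ± 0.56), Igf2r (89.5, 68.4, 94.5 and 36.5 CPM, -0.67 ± 0.28), Peg3 (68.6, 68.4, 118 and 73.1 CPM, -0.74 ± 0.26) and Dlk1 (0, 99.5, 0.984 and 5.04 CPM, 2.51 ± 1.27). The Peg3 call was also made without plexus cKO replicate 1 (-1.01, adjusted p = 0.0318).

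Venous cells had 5 called genes, where 26.6% of all genes were called, 13.8% lower and 12.7% higher. H19 (875, 918 and 1187 CPM in control replicate 1, control replicate 2 and cKO replicate 1) was 3.37-fold below arterial cells (log2 -1.75 ± 0.46, edgeR adjusted p = 0.00645). Igf2 (564, 1152 and 522 CPM, adjusted p = 0.0116), Cdkn1c (477, 487 and 202 CPM, adjusted p = 0.0264) and Igf2r (53.5, 36.2 and 68.7 CPM, adjusted p = 0.0128) were lower too, with log2 differences of -1.95 ± 0.56, -1.69 ± 0.55 and -0.99 ± 0.30. Mest was higher, at 1672, 2262 and 1547 CPM (0.95 ± 0.34, adjusted p = 0.0382). Its call held in 1 of the 7 fits that each left out 1 sum, the one without arterial cKO replicate 2, and was lost in the others (adjusted p = 0.0514 to 0.181). It was also lost with DESeq2 (0.0718), without a low-count filter (0.0759), with clusters (0.1615), thinning (0.199), stricter gates (0.2445) and control sums alone (0.0685). The calls of Igf2 and Cdkn1c were lost without venous control replicate 1 (adjusted p = 0.0569 and 0.0501) or venous cKO replicate 1 (0.0702 and 0.137), and that of Igf2 with control sums alone (-1.70, adjusted p = 0.105). Grb10 (172, 137 and 176 CPM), Plagl1 (132, 127 and 137 CPM), Peg3 (107, 141 and 123 CPM) and Meg3 (159, 97.2 and 131 CPM) were not called, with log2 differences of -0.02 ± 0.23, -0.33 ± 0.26, -0.12 ± 0.26 and 0.25 ± 0.54. Dlk1, at 5.49, 3.39 and 5.53 CPM, was not called either (0.21 ± 1.53), but was higher with clusters (2.90, adjusted p = 0.0193).

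The UMI ratio of H19 to Igf2, which use the same imprinting control region and enhancers, separated the replicates more than the genotypes. The ratio was 1.82 and 1.56 in the control and cKO arterial sums of replicate 1, and 0.915 and 0.768 in those of replicate 2. In EHT cells it was 1.47 and 1.34 against 0.751 and 0.719, and in plexus cells 1.77 and 2.33 against 0.752 and 0.894. Progenitors had the lowest values of replicate 1, at 1.20 and 0.988, and 0.493 and 0.556 in replicate 2, and myeloid cells had 2.31 and 2.67 against 0.637 and 0.483, where the replicate 1 sums rest on 30 and 40 H19 and 13 and 15 Igf2 UMIs. In macrophages the ratio was above 1 in both replicates, at 1.65 and 2.21 and at 1.97 and 1.54, where it rests on 574 H19 and 328 Igf2 UMIs. The megakaryocyte sums of replicate 2 had 1.75 in control and 0.652 in cKO. Both genes differed between the lanes. Arterial Igf2 was 1.46-fold (control) and 1.90-fold (cKO) higher in replicate 2, and arterial H19 0.733-fold and 0.934-fold of replicate 1. In arterial cells 5.69% of 7933 genes with at least 100 UMIs differed over 1.5-fold between replicates in the same direction in both genotypes. Neither H19 nor Igf2 was among them, nor were they in EHT cells. Igf2 was among such genes in plexus (1.51-fold and 1.95-fold) and myeloid cells (2.38-fold and 2.28-fold), where they made up 8.35% and 7.85%. H19 was among them in progenitors (0.412-fold and 0.207-fold) and macrophages (0.288-fold and 0.625-fold), where they made up 12.7% and 12.9%. Cdkn1c and Grb10 were also among them in progenitors. With 1 lane per replicate, the lane, the litters and the sequencing cannot be told apart.

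**Figure D4:**
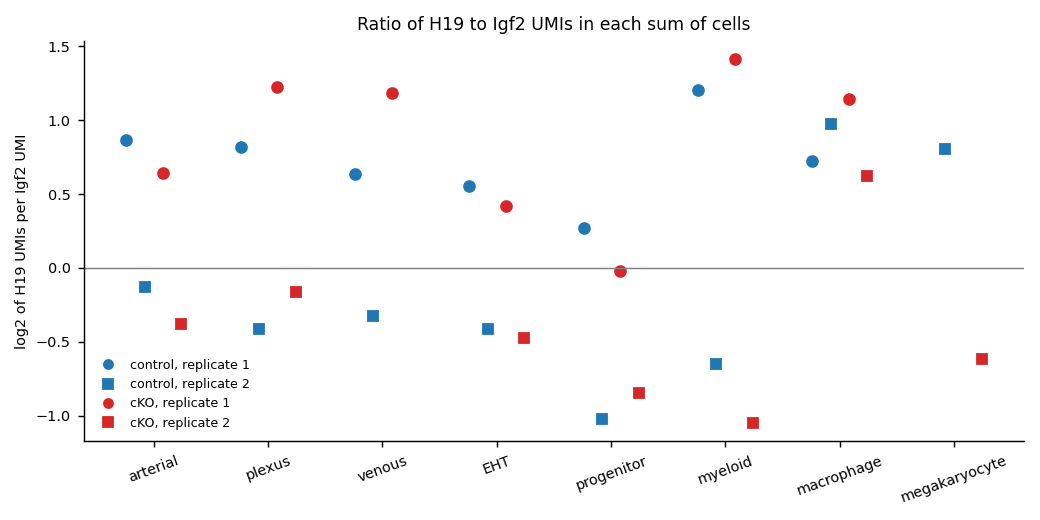
Log2 of H19 UMIs per Igf2 UMI (y axis) in each sum of cells, by population, genotype (colour) and replicate (shape). Before the log, replicate 1 lies between 0.988 and 2.67 and replicate 2 between 0.483 and 0.915 in all populations but macrophages and megakaryocytes.

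Within a replicate, H19 and Igf2 also varied together from cell to cell. After thinning, the Spearman correlation was 0.517 over 199 and 0.409 over 203 arterial cells and 0.508 over 95 and 0.687 over 67 EHT cells. H19 and Mest were weakly inverse in arterial cells (-0.135 and -0.183) and positive in EHT cells (0.463 and 0.454). H19 and Cdkn1c were near 0 in arterial cells (-0.0506 and 0.0772) and positive in EHT cells (0.397 and 0.396). The cells of a lane share their library and its free RNA, and these values are descriptions.

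The comparison of cKO with control cells asks whether loss of Nupr1 was accompanied by a change in these genes. None of the genes tested (10 in arterial, 9 in plexus, 10 in EHT, 6 in progenitor and 5 in myeloid cells and 8 in macrophages) passed the test in arterial, plexus, EHT, progenitor or myeloid cells or in macrophages (edgeR, adjusted p of at least 0.93), and none did with DESeq2. All genes called were 0 of 10118 (0%) in arterial cells, 5 of 6788 (0.0737%) in plexus, 1 of 9704 (0.0103%) in EHT, 1 of 7715 (0.013%) in progenitor, 2 of 9231 (0.0217%, with 0.0108% higher and 0.0108% lower) in myeloid cells and 0 of 10722 (0%) in macrophages. At an unadjusted p under 0.05 there were 100 genes in arterial cells and 41 in macrophages, with no member among them. There were 252 in plexus with Cdkn1c, and 193 in EHT cells with Mest. Each count was below a share of 0.05 of the genes tested, the share that this threshold gives with no change. The fits held no lane term, so the lack of calls does not show that the genes were unchanged. With the replicate as a block, Dlk1 was called in EHT cells and progenitors, and Cdkn1c in progenitors and plexus cells (values below). The single EHT gene called without the block was Nupr1 itself. The share of cells with Xist and no Y-linked transcript was 92.8% and 98.7% in control but 0.872% and 57.6% in cKO pools. The share with Y-linked transcripts and no Xist was 0% and 0% in control and 88.1% and 0% in cKO pools. Genotype and sex therefore cannot be told apart in replicate 1, and these shares do not settle the sex of the cKO pool of replicate 2.

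The values of each replicate follow. Where a genotype fit leaves out 1 sum, 1 arm holds a single sum, which is assumed to vary like the other arm. Mest in EHT cells was at 113 CPM in control and 78.2 CPM in cKO cells of replicate 1, and at 249 and 62.9 CPM in replicate 2 (log2 -1.35 ± 0.35, edgeR adjusted p = 1.00). It was lower in cKO in 2 of 2 pairs, passed when genes with low counts were kept (-1.33, adjusted p = 0.00224), and passed without EHT control replicate 1 (-1.80, adjusted p = 0.000155). The difference of this genotype effect from that in arterial cells was -1.37 ± 0.51 and did not pass (adjusted p = 1.00). Meg3 had the largest difference of the members in EHT cells, -1.90 ± 0.92, which turned to 0.31 without control replicate 2, the sum in which a single cell held 50.8% of the UMIs, and passed without control replicate 1 (-2.73, adjusted p = 4.14e-07). Dlk1 was lower in cKO EHT cells in both replicates, and with the replicate as a block the difference passed (-0.76 ± 0.17, adjusted p = 0.0147), though it turned to 0.97 with stricter gates and to 1.01 without EHT control replicate 2. In progenitors, the block gave calls for Dlk1 (-0.997 ± 0.180, adjusted p = 0.00821) and Cdkn1c (1.13 ± 0.17, adjusted p = 0.000881), and in plexus cells for Cdkn1c (-0.74 ± 0.12, adjusted p = 0.0486). Their values without the block were -0.87 ± 0.67, 1.04 ± 0.75 and -0.73 ± 0.25. With graph clusters the Cdkn1c difference in progenitors was -0.0801. Without the block, Cdkn1c in progenitors passed without control replicate 1 (adjusted p = 0.00541) or cKO replicate 2 (0.0178), and Dlk1 without cKO replicate 2 (0.00363), each with 1 arm of a single sum.

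In the other populations the member with the largest difference was Dlk1 in arterial cells (-1.94 ± 0.87), Meg3 in plexus cells (0.91 ± 0.55), Grb10 in progenitors (1.28 ± 0.64), Dlk1 in myeloid cells (0.76 ± 0.83) and Peg3 in macrophages (0.89 ± 0.87). Dlk1 in arterial cells rested on 27, 14, 9 and 0 UMIs and passed without arterial cKO replicate 1 (adjusted p = 0.0274), with a single cKO sum left. In plexus cells Dlk1 was too low to be tested, but passed without control replicate 1 (adjusted p = 1.08e-12) or cKO replicate 1 (adjusted p = 5.19e-05), where 1 arm is a single sum and the 64 UMIs of 1 control cell decide the value. In simulated counts with the EHT totals, 88% of genes changed 4-fold but 27% of those changed 2-fold were called between genotypes, so a change of the smaller size could be missed. In the data themselves Meg3, 3.74-fold lower in cKO EHT cells, and Mest, 2.55-fold lower, were not called. A larger change of a single member could therefore be missed as well. H19, Igf2, Cdkn1c, Peg3, Grb10, Igf2r and Plagl1 differed by 0.31 or less on the log2 scale in EHT cells, with SE of 0.23 to 0.31.

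**Figure D5:**
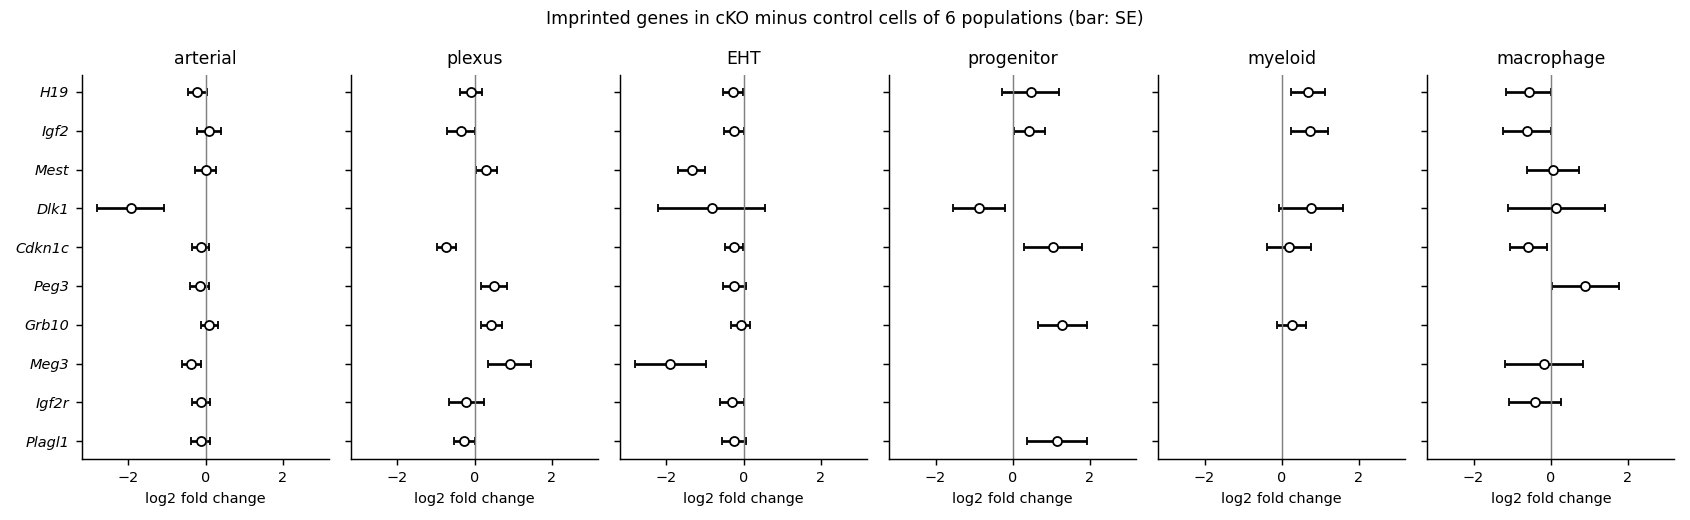
Log2 fold change (x axis, with SE) of each tested gene in cKO minus control cells of 6 populations, from the fit without the replicate block. No point passed the test, and the largest differences in EHT cells are those of Meg3 (-1.90) and Mest (-1.35).

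Other imprinted genes were taken from a list of 43, of which 31 were high enough to be tested. In EHT cells 16 of them were lower and 2 higher than in arterial cells, where 22.6% of all genes were lower and 20.3% higher, with a median log2 difference of -0.70 against -0.000902 over all genes. The lower ones with the largest differences were Tnfrsf23 (-3.83), Asb4 (-3.18), Nnat (-2.91) and Rian (-2.85), the last a non-coding RNA of the Dlk1-Meg3 domain, and the higher ones were Peg13 (0.83) and Zdbf2 (0.71). In progenitors 9 were lower than in EHT cells, led by Airn (-2.90), Peg10 (-1.87), Sgce (-1.72) and Igf2os (-1.65), and none was higher, where 9.24% of all genes were lower. Macrophages had 24 lower and 1 higher than arterial cells, and the higher one was Mcts2 (1.12), where 32.7% of all genes were lower. In plexus cells 3 were higher (Peg13, Mcts2 and Cd81) and none lower, where 4.1% of all genes were higher. Venous cells had 4 higher, among them Asb4 (1.12) and Peg10 (0.92), and 7 lower, led by Tnfrsf23 (-4.41) and Slc22a18 (-4.36), where 12.7% of all genes were higher and 13.8% lower. In myeloid cells 6 were lower and 1 higher than in progenitors, with Zdbf2 (-4.04) and Ndn (-1.80) among the lower, where 8.64% of all genes were lower. Megakaryocytes had 9 lower and 9 higher, with Ddc (3.33), Sgce (1.63) and Mcts2 (1.36) among the higher, where 22.5% of all genes were lower and 17.9% higher.

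Genes that transmit or modify IGF signals formed a list of 18, of which 17 were tested. Between EHT and arterial cells 6 of the 17 were called, where 42.9% of all genes were, and the median log2 difference was -0.17. Binding proteins of IGF hold the ligand outside the cell. Igfbp7 (-5.14), Igfbp3 (-4.27), Igfbp2 (-2.57) and Igfbp4 (-1.06) were among the 5 lower genes, and Lin28b, an RNA-binding protein that blocks let-7 microRNAs, was the 1 higher gene (0.98). Igfbp3 went from 338 to 403 CPM in arterial sums to 8.75 to 38.8 CPM in EHT sums, and to 0.555 to 1.11 CPM in progenitors. In progenitors, where 14.8% of all genes were called, 4 were lower, led by Igfbp2 (-5.47), and 2 were higher than in EHT cells, Lin28a (2.34) and Igf2bp3 (0.60), the latter a protein that binds Igf2 mRNA. Macrophages had 9 lower and 3 higher than arterial cells, where 62.5% of all genes were called, with Lin28b (1.24), Igf2bp3 (1.20) and Irs2 higher. Irs2, an adaptor of the insulin receptor, was at 0 in the arterial sums and at 0.694 to 5.33 CPM in macrophages. Venous cells had 5 lower and 3 higher than arterial cells, where 26.6% of all genes were called, and plexus cells 1 lower and 3 higher, where 8.1% were. Igf1, the other ligand, was among the higher ones in both (2.45 and 1.37). Myeloid cells had 4 lower and 1 higher (Lin28a, 1.70) than progenitors, where 14.5% of all genes were called. Megakaryocytes, where 40.4% were, had 10 lower, led by Hmga2 (-6.24), and 2 higher, Igf1r (0.84) and Irs2, which had 32.7 to 38.8 CPM against 0 to 2.00 CPM in progenitors. Values in parentheses are log2 differences that passed the test.

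Across the 29 sums, the profiles of 9 members were close to each other and that of Dlk1 stood apart. Pearson correlations of log2(CPM + 1) were 0.974 for H19 and Igf2, 0.984 for Peg3 and Plagl1 and 0.974 for Igf2 and Cdkn1c, and lay between 0.769 and 0.984 for all pairs without Dlk1. Dlk1 had correlations of -0.315 to 0.136 with the others. Among 7714 genes with a mean of at least 10 CPM, those most like H19 were Cdh5 (0.983), Cgnl1 (0.982) and Tjp1 (0.977), genes of endothelial junctions. Plagl1 was closest to Tjp1 (0.988), Mest to Parva (0.981), Cdkn1c to Ablim1 (0.980), Igf2r to Fbn2 (0.975), Grb10 to Tspan6 (0.948), Meg3 to Adora2a (0.928) and Dlk1 to Erh (0.823). The 29 points share lanes and rest mainly on the contrast of endothelium with blood.

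A cluster of 25 cells outside all gates carried several of these genes at levels of its own. Its leading genes were Actc1, Acta2, Tagln, Actg2 and Mylpf, with 3 of the mesenchymal markers among its top 10, and it is called mesenchymal-like here. In control replicate 2, cKO replicate 1 and cKO replicate 2, which held all 25 cells, Dlk1 stood at 1028, 504 and 782 CPM, Peg3 at 860, 854 and 715 CPM and Meg3 at 380, 697 and 369 CPM, above every sum of the 8 populations. Cdkn1c, at 1157, 7636 and 2099 CPM, was carried most by the cKO sum of replicate 1, and H19, at 903, 1747 and 638 CPM, was below the arterial level. Grb10 had 432, 445 and 373 CPM, also above every sum of the populations. This group was found by clustering all cells, so no test was made. Mesenchymal markers summed to 66.8 to 244 CPM in arterial, 38.8 to 151 CPM in EHT, 12.6 to 65.6 CPM in plexus, 4.80 to 44.1 CPM in venous, 4.01 to 21.1 CPM in progenitor, 3.36 to 7.21 CPM in myeloid, 1.26 to 1.88 CPM in macrophage and 64.8 to 91.6 CPM in megakaryocyte sums, and 10 of 10 had a UMI in arterial and 8 of 10 in EHT cells, where Col1a1 and Myog were at 0. Their part in the members' levels was not tested. Markers of neural and epithelial cells summed to 45.8 to 101 CPM in arterial, 108 to 133 CPM in EHT and 19.05 to 103 CPM in progenitor sums, with Sox2 and Sox10 at 0 in each.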

How the data were processed

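Cells were sorted, hashtagged and sequenced in 2 lanes of the 10x Chromium V3 3′ assay. The files deposited by the authors hold a UMI count for every gene in every cell, not normalized, made with Cell Ranger 5.0.1 against mm10 per the submitters' processing notes, with a hashtag assignment per cell from Seurat 4.1.0, and only hashtag singlets. No doublet caller was run here. Whether strand was used in counting is not given in the sources used here. The hashtag gave the genotype, and the lane the replicate.

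Populations were gated by UMI minimums: C1qa 5; Gp9 10; Mpo 10 and Fcgr3 5; Gja5 5; and 2 for each gene of the other pairs. Apart from the 9 cells left out, a cell that passed several gates went to the first of macrophage, megakaryocyte, myeloid, EHT, progenitor, venous, plexus and arterial. The minimums were set after the marker distributions were seen. The members and gene lists were chosen with earlier results of these data known. Counts were summed per population, genotype and replicate (at least 10 cells), and tested with edgeR 4.0.16 (filterByExpr, TMM, quasi-likelihood with robust dispersion) in R 4.3.3, with Benjamini-Hochberg adjustment over all genes and a threshold of 0.05. The fit between populations took all 29 sums, and each genotype fit took the sums of 1 population. All tests were two-sided. SE is that of the log2 fold change. The steps were tested on simulated data, with 200 changed genes in each comparison. Between EHT and arterial cells 86% of genes changed 4-fold and 59% of those changed 2-fold were called among 11676 genes, with 5 false calls. Between genotypes in EHT cells these shares were 88% and 27% among 9740 genes, with 17 false calls. The false calls are to be read against the calls made among the 200 changed genes.

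All members were named in every population, beside at most 4 called genes of a list per direction and comparison, the 3 genes most like a member, and the member with the largest difference between genotypes. Same-numbered sums share a lane, and their deviations from the group means correlated at 0.422 in arterial, 0.309 in plexus, 0.402 in EHT, 0.459 in progenitor and 0.224 in myeloid cells and 0.463 in macrophages, so the numbers pair the sums. Alternatives were DESeq2 1.42.0, a replicate block, no filter on low counts, RLE normalization, graph clusters (15 neighbours, 20 components, resolution 1.5), the stated cell limits (1800 genes, 6000 UMIs and 5% mitochondrial), thinning to 6000 UMIs, stricter gates, control sums only, and leaving out each sum. In all, 101 cells fell outside the stated limits and were kept. Intervals and the limits that a count of 0 allows (3 UMIs) cover counting error only. Positions are from GENCODE M21 and sequences from RefSeq.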

Additional observations from a re-analysis of the deposited data

Results flagged for a closer look

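Among 60 groups of 4 sums (a member in a population), 6 had a sum whose gap to its neighbour, as a share of the whole range, exceeded the critical value of 0.829. Chance gives about 1 in 20 such groups. Dlk1 in plexus control replicate 2 stood at 99.46 CPM, all from 1 cell, against 5.04 CPM or less in the other plexus sums. Meg3 in EHT control replicate 2 stood at 74.01 CPM, where 1 cell gave 50.8% of the UMIs. Peg3 in plexus cKO replicate 1 was high, at 118.1 CPM. Grb10 was low in EHT cKO replicate 2, at 70.48 CPM, and high in myeloid cKO replicate 2, at 21.4 CPM. Cdkn1c in macrophages of control replicate 1 was high, at 6.437 CPM. No cause of these values was tested.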

How the results depend on the processing

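The number of members called stayed within 1.5 times in most settings. Between EHT and arterial cells it went from 9 to 6 with control sums only. Between plexus and arterial cells it went from 1 to 3 with the replicate block and to 0 without a low-count filter or with control sums only, and was 0 to 1 when 1 sum was left out. Between venous and arterial cells it went from 5 to 3 with control sums only, and was 2 to 5 when 1 sum was left out. Between genotypes it went from 0 to 1 in plexus cells, 1 in EHT cells and 2 in progenitors with the replicate block, to 1 in plexus cells under the stated cell limits and to 1 in EHT cells without the filter. Leaving out 1 sum gave 0 to 1 in arterial and plexus cells and 0 to 2 in EHT cells and progenitors. The block changed no other call of a member. With graph clusters the members took 0.507% of plexus, 0.0432% of progenitor and 0.00617% of myeloid UMIs.

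Of single-gene values outside the leave-one-out fits, 639 kept their call and sign, 29 lost and 22 gained a call, and 20 changed sign. Without 1 sum these numbers were 530, 29, 13 and 8. The log2 differences that changed sign, none of them called unless a p is given, were as follows. Plexus against arterial with graph clusters gave Grb10 0.000282, Dlk1 -0.22, Meg3 0.16 and Cdkn1c -2.31 (edgeR, adjusted p = 0.0354), thinning gave Grb10 0.0397, and leaving out plexus control replicate 2 gave Dlk1 -0.96 (range without 1 sum -0.96 to 3.13). Venous against arterial gave Grb10 0.0229 with clusters, 0.15 with stricter gates and 0.0213 without venous control replicate 2 (range -0.11 to 0.0213), and Dlk1 -1.59 with stricter gates, -0.54 with control sums and -0.23 without arterial cKO replicate 2 (range -0.23 to 0.82). Myeloid against progenitor gave Mest -0.0462 with the block, -1.05 with clusters, -0.17 with stricter gates, -0.37 with control sums and -0.12 without progenitor cKO replicate 2 (range -0.12 to 0.56), and Grb10 1.12 with clusters (adjusted p = 0.035), 0.0088 with thinning, 0.33 with stricter gates, 0.54 with control sums and 0.38 without progenitor cKO replicate 1 (range -0.36 to 0.38). Clusters gave Igf2r 0.29 between megakaryocytes and progenitors. Between genotypes, Dlk1 in EHT cells was 0.97 with stricter gates and 1.01 without control replicate 2 (range -2.50 to 1.01), where Meg3 was 0.31 (range -2.73 to 0.31), Cdkn1c in progenitors was -0.0801 with clusters, and Dlk1 in myeloid cells was -0.34 without cKO replicate 2 (range -0.34 to 2.04). The cause was not tested.

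Counts over all genes moved by over 1.5 times as follows. The block took plexus against arterial cells from 928 to 1526, progenitors against EHT cells from 1700 to 2603 and myeloid cells against progenitors from 1660 to 2527. Clusters took these 3 to 1546, 3898 and 1027. Thinning, with 6045 genes tested, gave 2101 (from 4917) for EHT against arterial cells, 244 for plexus, 804 (from 3045) for venous, 247 for progenitors, 248 for myeloid cells, 3501 (from 7167) for macrophages and 1393 (from 4635) for megakaryocytes. Control sums alone gave, in that order, 1812, 197, 810, 715, 340, 4796 and 2191 (that of macrophages within 1.5 times). Between genotypes the block called 34 genes in arterial, 23 in plexus, 52 in EHT, 17 in progenitor and 3 in myeloid cells and 2 in macrophages, and 1 for the difference of the genotype effect between EHT and arterial cells, and no filter gave 4, 75, 23, 18, 6 and 3. In plexus cells DESeq2 called 17 and the stated limits 36, and in myeloid cells stricter gates called 8. Thinning called 0 in every population, stricter gates 0 in plexus, clusters 0 in progenitors and the stated limits 0 in myeloid cells. Clusters could not be fitted between genotypes in plexus and myeloid cells. Progenitor and plexus gates hold few cells, which limits the precision of their levels.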
